A study of Homo sapiens with 4 samples.

Results

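The genes studied here encode splicing factors, RNA helicases and other RNA-binding proteins, and the measurement is how many reads of their own transcripts were recovered with Flag-tagged AKT1. Members are the protein-coding genes whose symbol starts with HNRNP, SRSF, SF3, DDX, DHX or RBM followed by a digit, and whose span in the RefSeq annotation of GRCh38.p14 is overlapped by a RIP-seq peak of the Flag-AKT1 E17K list. The rule names 140 genes of the annotation. Of these, 33 held peaks in that list, out of 1708 protein-coding genes with a peak, and they shared 127 of its 4838 peaks.

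MDA-MB-231, an established breast cancer cell line, was transfected with a plasmid for Flag-AKT1 E17K, the activating mutant of the kinase AKT1, or for Flag-AKT1 WT, the wild-type form. From each transfection 1 anti-Flag immunoprecipitate and 1 input were sequenced after rRNA depletion, 4 libraries in all, and the authors deposited 1 peak list per plasmid with the reads of both libraries inside every peak. The cells keep their own AKT1 genes, and with 1 library per condition nothing here can be compared between the plasmids against a replicate spread. The control reads of the lists are taken to be the input, as in the sample titles, although the design text speaks of control IgG. Reads came from bulk lysates, in which fewer cells expressing a gene and less RNA per cell cannot be told apart.

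The list totals set the scale for every value below. The Flag-AKT1 E17K list held 484463 immunoprecipitate and 248412 input reads inside peaks, a ratio of 1.95, and its median peak had a ratio of 2.18. The Flag-AKT1 WT list had 808 peaks with 51123 and 52223 reads, a ratio of 0.979, and a median peak at 0.976. Library totals were not given, so a ratio has meaning only beside the other ratios of its list. A peak was listed because the authors' caller picked it, so genes without a peak have no value, and a ratio above 1 was not read as enrichment. VIM, the mesenchymal intermediate filament gene that MDA-MB-231 is known to express, held 8 peaks with 2032 and 1083 reads for Flag-AKT1 E17K.

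Heterogeneous nuclear ribonucleoproteins (hnRNPs) coat nascent transcripts and steer splicing, export and stability, often opposing the SR proteins, which bind exons and recruit the splicing machinery. The SF3A and SF3B complexes are parts of the U2 snRNP and hold it at the branch point of the intron. DEAD-box (DDX) and DEAH-box (DHX) helicases use ATP to rearrange RNA and RNA-protein complexes from transcription to translation and ribosome assembly. RBM genes carry RNA recognition motifs and are a mixed group, several of them spliceosome components. Many SR protein and hnRNP genes control their own transcripts through alternative splicing.

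Many of the 140 genes lay where no peak was listed. Both lists hold peaks for only some combinations of chromosome and strand label. In the Flag-AKT1 E17K list 124 of the 127 member peak assignments with a known gene strand carried the label opposite to the gene, and so did 3169 of 3181 peaks (99.6%) that lay in the span of a single protein-coding gene of known strand. The label was therefore read as the opposite of the transcript. On that reading 76 of the 140 genes lay where the list has at least 1 peak, 50 lay where it has 0 peaks, and 14 have no strand in the tables used here. Among the 76, 31 held a peak of the opposite label. DHX32 counts among the 50, although it is a member, because its peaks carry the label equal to its strand. Genes of the rule without a peak, although the list has peaks elsewhere on their chromosome and strand, include RBM20, a cardiac splicing factor gene, with 520 peaks on its strand of chromosome 10, and RBM33 with 179 on its strand of chromosome 7. HNRNPC, DDX24 and RBM23 lie on a chromosome 14 strand where the list has 5 peaks, all of them at AKT1, the gene carried by the plasmid. These 3 genes count among the 76 only through the AKT1 peaks. For HNRNPU, SF3B4, SRSF4, SRSF10 and RBM8A, all on the minus strand of chromosome 1, the list has 34 peaks and none of them at these genes.

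Sequence was at hand for 1 peak and for 1 landmark inside a member. The peak at the start of HNRNPA2B1 is shown because it was the only member peak to overlap a promoter window of RefSeq (GRCh38.p14), here chr7:26200697-26200996 on the minus strand. The window runs from 250 bases before the annotated start to 50 bases from it onwards. The capitals mark the 64 bases inside the peak, 14 before the start and 50 from the start on.
HNRNPA2B1: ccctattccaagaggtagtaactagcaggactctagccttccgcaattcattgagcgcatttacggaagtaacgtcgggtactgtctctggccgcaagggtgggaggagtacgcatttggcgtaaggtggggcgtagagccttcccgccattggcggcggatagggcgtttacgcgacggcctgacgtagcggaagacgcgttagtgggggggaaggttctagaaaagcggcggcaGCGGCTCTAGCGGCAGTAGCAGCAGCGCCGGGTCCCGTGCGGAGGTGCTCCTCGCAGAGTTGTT
That peak ran from 26200331 to 26200760 and held 18 immunoprecipitate and 8 input reads, the fewest of the 6 HNRNPA2B1 peaks. The landmark is MIR7-1, a miRNA gene within the HNRNPK span on chromosome 9, from 83969748 to 83969857. No peak covered it. The nearest peaks ended 312 bases below it and started 193 bases above it. Its mature miRNAs, with the seed (bases 2 to 8) in capitals, are given by RefSeq as follows.
hsa-miR-7-5p: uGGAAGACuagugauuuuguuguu
hsa-miR-7-1-3p: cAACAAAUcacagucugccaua
The peaks either side of MIR7-1 belong to the host transcript by position, and nothing was measured for the miRNA itself. Of 5 small RNA genes within member spans of this list, 0 were overlapped by a peak. The others are MIR3064 and MIR5047 in DDX5, SNORD13F in SF3B2 and the snoRNA LOC124900524 in SF3B1.

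Taken over all 127 peaks, the members held 12787 immunoprecipitate and 6001 input reads, a ratio of 2.13 (95% Wilson interval 2.07 to 2.2, counting error only). They made up 2.64% of the immunoprecipitate and 2.42% of the input reads of the list. These list totals include the peaks of AKT1, at a ratio of 1.5, and with those left out the list's ratio was 2.06. The median member gene had a ratio of 2.19, beside 2.14 over all 1708 protein-coding genes with a peak. More immunoprecipitate than input reads were found in 125 of the 127 peaks, and 58 lay above the median peak of the list. Nearly all peaks of the list had more immunoprecipitate reads too, since a ratio of 1 lay at its percentile 0.558. Each gene's summed reads were set against all remaining reads of the list (Fisher's exact test, two-sided, adjusted over the 1708 genes), which compares these libraries and not conditions. A ratio above the list's was found for 26 of the 33 members and for 1200 of the 1708 genes. By this test 2 members, HNRNPM and DHX29, had more immunoprecipitate reads, compared to 2.75% of all genes tested, and 0 had fewer, compared to 0.176% (2.93% in either direction). Both calls were lost with the AKT1 peaks left out of the reference and in a binomial test against the median peak. Over all genes, those settings changed the calls from 47 higher and 3 lower to 20 and 8, and to 11 and 30. At an unadjusted p under 0.05 there were 8 of 33 members and 244 of 1708 genes. By single peaks 0 of 127 passed (lowest adjusted p = 0.104, Fisher's exact test), where 0.269% of all peaks did, 0.0827% with more and 0.186% with fewer immunoprecipitate reads, and 14 of the 127 had an unadjusted p under 0.05, as did 425 of all 4838 peaks.

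**Figure D1:**
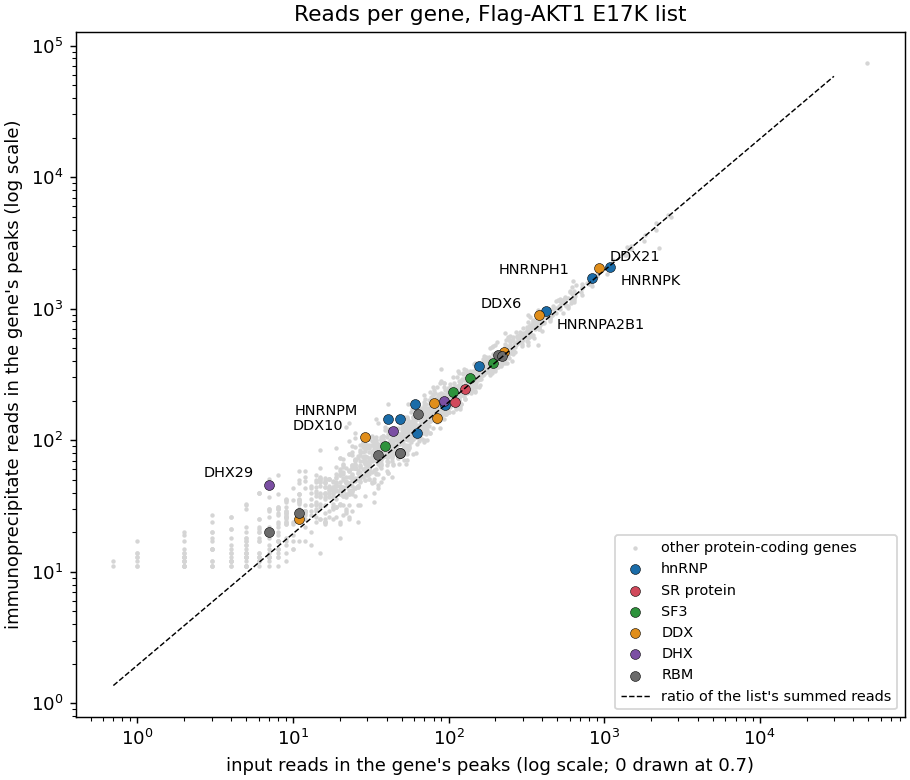
Immunoprecipitate reads against input reads summed over the peaks of each protein-coding gene of the Flag-AKT1 E17K list, both axes logarithmic, with the members coloured by family and the dashed line at the ratio of the list's summed reads, 1.95. Members span 20 to 2062 immunoprecipitate reads and follow the line of the other genes, with DHX29 (46 and 7 reads) and HNRNPM (146 and 41) above it.

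The hnRNP genes gave the most reads. In the Flag-AKT1 E17K list 9 of 26 had peaks, 43 in all, with 5874 immunoprecipitate and 2810 input reads and a ratio of 2.09 (interval 2 to 2.19). HNRNPK, which binds C-rich RNA and DNA, held 2062 immunoprecipitate and 1083 input reads in 9 peaks, a ratio of 1.90 (interval 1.77 to 2.05). HNRNPH1, which binds G-runs beside splice sites, held 1717 and 840 reads in 8 peaks, a ratio of 2.04. Both genes sat near the summed ratio of the list. HNRNPK passed as lower in an exact binomial comparison with the median peak of 2.18 (adjusted p = 0.0186). Per kilobase of peak, HNRNPK had 529 and HNRNPH1 452 immunoprecipitate reads, at the percentiles 96.3 and 95.2 of all genes by that measure, which counts only sequence inside peaks. HNRNPA2B1, known for binding UAG motifs and for sorting RNA, held 954 and 422 reads, a ratio of 2.26 (interval 2.02 to 2.53, adjusted p = 0.166 by Fisher's exact test). HNRNPA0, which binds AU-rich elements, held 364 and 156 reads, a ratio of 2.33.

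The highest hnRNP ratios came from genes with few peaks. HNRNPM, a regulator of splicing during the epithelial to mesenchymal transition, had 1 peak on chromosome 19 from 8486001 to 8486400, with 146 immunoprecipitate and 41 input reads. Its ratio of 3.56 (interval 2.52 to 5.03) was at the percentile 93.6 of all genes, and its adjusted p was 0.0213 in Fisher's exact test. The call depended on the reference. AKT1 itself held 73374 and 48883 reads (ratio 1.5), and with its peaks left out the adjusted p was 0.058 (Fisher's exact test). Set against the median peak by a binomial test, exact and two-sided, it was 0.0986. HNRNPR had 1 peak with 187 and 61 reads, a ratio of 3.07 (interval 2.30 to 4.09). Its adjusted p was 0.0609 in Fisher's exact test. This became 0.0398 when only peaks with at least 10 input reads were used, where 35 of 1470 genes were higher and 3 lower. It was 0.160 with the AKT1 peaks left out and 0.186 against peaks of the same chromosome and label (Fisher's exact test). The binomial test against the median peak gave 0.213. HNRNPH3, a paralog of HNRNPH1, held 145 and 49 reads in 5 peaks, a ratio of 2.96 that did not pass (adjusted p = 0.169, Fisher's exact test). Its highest peak had 13 and 2 reads, a ratio of 6.5 with an interval of 1.64 to 25.8. The genes named for similarity to HNRNPU were lower. HNRNPUL2 held 186 and 95 reads in 9 peaks (ratio 1.96), and HNRNPUL1 held 113 and 63 reads in 1 peak (ratio 1.79), the lowest of the family.

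SR protein genes were the family with the lowest ratio, on 2 genes of 12. SRSF3, the smallest SR protein, had 1 peak with 247 immunoprecipitate and 127 input reads, a ratio of 1.94 (interval 1.57 to 2.41). That peak is 245 bases wide and lies 40.9% along the gene span. It held 1008 immunoprecipitate reads per kilobase, the densest member and at the percentile 97.7 of all genes. SRSF7, the closest paralog of SRSF3, had 2 neighbouring peaks, 25.2% and 36.6% along its span, with 107 and 89 immunoprecipitate and 61 and 49 input reads. Its summed ratio was 1.78 (interval 1.41 to 2.25). Both genes are known to carry a conserved poison exon, whose inclusion sends the transcript to decay. Whether these peaks overlap it was not tested, since the tables used here hold no exons. Over both genes the ratio was 1.87 (interval 1.60 to 2.19), and neither passed the test.

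The 4 SF3 genes with a peak, of 9, differed little. SF3B1, the branch point subunit mutated in leukaemias and other cancers, held 297 immunoprecipitate and 138 input reads in 3 peaks (ratio 2.15). SF3B2, its partner in the SF3B complex, held 386 and 192 reads in 5 peaks (ratio 2.01). SF3A1 held 231 and 107 reads in 2 peaks (ratio 2.16), and SF3B6, which contacts the branch point adenosine, held 91 and 39 reads in 1 peak (ratio 2.33). The intervals of all 4 overlap each other and the median gene of the list, and the lowest adjusted p was 0.760 (Fisher's exact test). The family's 11 peaks had a ratio of 2.11 (interval 1.89 to 2.35).

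DDX genes had 42 peaks in 7 of 38 genes, with 3863 immunoprecipitate and 1740 input reads, a ratio of 2.22 (interval 2.10 to 2.35). DDX21, a nucleolar helicase of rRNA transcription and processing, held 2028 and 927 reads in 16 peaks, the most peaks of any member. Its ratio was 2.19 (interval 2.02 to 2.36), with an adjusted p of 0.0888 in Fisher's exact test. With only peaks of at least 10 input reads this became 0.0398, where 35 of 1470 genes were higher and 3 lower. The value was 0.570 with the AKT1 peaks left out and 0.955 against peaks of the same chromosome and label (Fisher's exact test). In the binomial test against the median peak DDX21 did not pass either. DDX6, the decapping and P-body helicase, held 893 and 380 reads in 12 peaks, a ratio of 2.35 (interval 2.08 to 2.65, adjusted p = 0.0658, Fisher's exact test). These 2 genes gave most of the DDX reads, and neither passed in the main test. DDX56, a nucleolar helicase of ribosome assembly, held 472 and 228 reads in 7 peaks (ratio 2.07). DDX5, a splicing and transcription cofactor, held 191 and 81 reads in 1 peak (ratio 2.36).

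Among the DDX genes with less depth the ratios spread further. DDX10, another ribosome biogenesis helicase, had a single peak across its 3' end, with 106 immunoprecipitate and 29 input reads. Its ratio of 3.66 (interval 2.43 to 5.50) was at the percentile 94.0 of all genes and missed the threshold (adjusted p = 0.0606, Fisher's exact test). DDX41, a gene of inherited myeloid neoplasms, held 148 and 84 reads in 4 peaks and had the lowest DDX ratio, 1.76 (interval 1.35 to 2.30). In its peak nearest the start the input had more reads, 13 against 11. DDX50, the neighbour and paralog of DDX21 on chromosome 10, had 25 and 11 reads in 1 peak across its 3' end (ratio 2.27), so it was measured far less deeply than DDX21.

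Of 16 DHX genes 3 had peaks. DHX9, also called RNA helicase A, which unwinds double-stranded RNA, held 199 immunoprecipitate and 94 input reads in 3 peaks (ratio 2.12, interval 1.66 to 2.70). DHX29, a helicase that helps the small ribosomal subunit scan structured leaders, had 3 peaks with 16 and 3, 15 and 3, and 15 and 1 reads. Their ratios were 5.33 (interval 1.66 to 17.1), 5 (interval 1.55 to 16.1) and 15 (interval 2.53 to 88.9). Summed, 46 against 7 reads gave a ratio of 6.57 (interval 3.03 to 14.3), the highest of the 33 members and at the percentile 98.6 of all genes. Its adjusted p was 0.0414 in Fisher's exact test, 0.0729 with the AKT1 peaks left out, 0.115 against peaks of its own chromosome and label, and 0.0769 in the binomial test. All 3 peaks also lie in the span of the lncRNA CCNO-DT, whose annotated strand is that of the peak label. With peaks of at least 10 input reads only, DHX29 had no peak left.

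DHX32 was the member whose peaks fitted its strand least. It held 118 immunoprecipitate and 44 input reads in 3 peaks (ratio 2.68, interval 1.90 to 3.78), and these are the 3 assignments whose label equals the gene's strand. The 2 larger peaks, with 30 and 13 and with 71 and 22 reads, also overlap BCCIP, a protein-coding gene without a strand in the tables used here. The remaining peak, with 17 and 9 reads, had a ratio of 1.89, below the list. By the strand reading used here, none of the 3 peaks has the label of a DHX32 transcript, and this includes the peak outside BCCIP. The DHX32 value can therefore not be given to DHX32. The gene was kept among the 33 members and in the DHX ratio because membership went by overlap alone. Without it 2 DHX genes remain.

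Of 39 RBM genes 8 had peaks, 19 in all, with 1239 immunoprecipitate and 593 input reads and a ratio of 2.09 (interval 1.89 to 2.30). RBM12 held 442 and 208 reads in 2 peaks (ratio 2.13), both also within the span of CPNE1, which shares its strand and locus. RBM22, a protein of the catalytic spliceosome, held 434 and 219 reads in 5 peaks (ratio 1.98), and its largest peak, with 222 and 97 reads, lay 9 bases from the 3' end. Both genes lay between the list's ratio and its median gene. RBM28, a nucleolar protein, held 158 and 64 reads in 6 peaks (ratio 2.47). Of these, 2 peaks had 3 input reads each, with 15 immunoprecipitate reads (ratio 5, interval 1.55 to 16.1) and 12 (ratio 4, interval 1.21 to 13.2). RBM17, a splicing factor that contacts SF3B1, held 77 and 35 reads in 3 peaks (ratio 2.2). RBM4, an alternative splicing regulator, had 1 peak with 80 and 49 reads, shared with the readthrough gene RBM14-RBM4, so these 2 members are a single measurement. Its ratio of 1.63 (interval 1.15 to 2.33) was the lowest of all members. RBM4B, its paralog, had 20 and 7 reads (ratio 2.86), and RBM48 had 28 and 11 (ratio 2.55), each in 1 peak. No RBM gene passed the test, and the lowest adjusted p was 0.483 (Fisher's exact test).

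**Figure D2:**
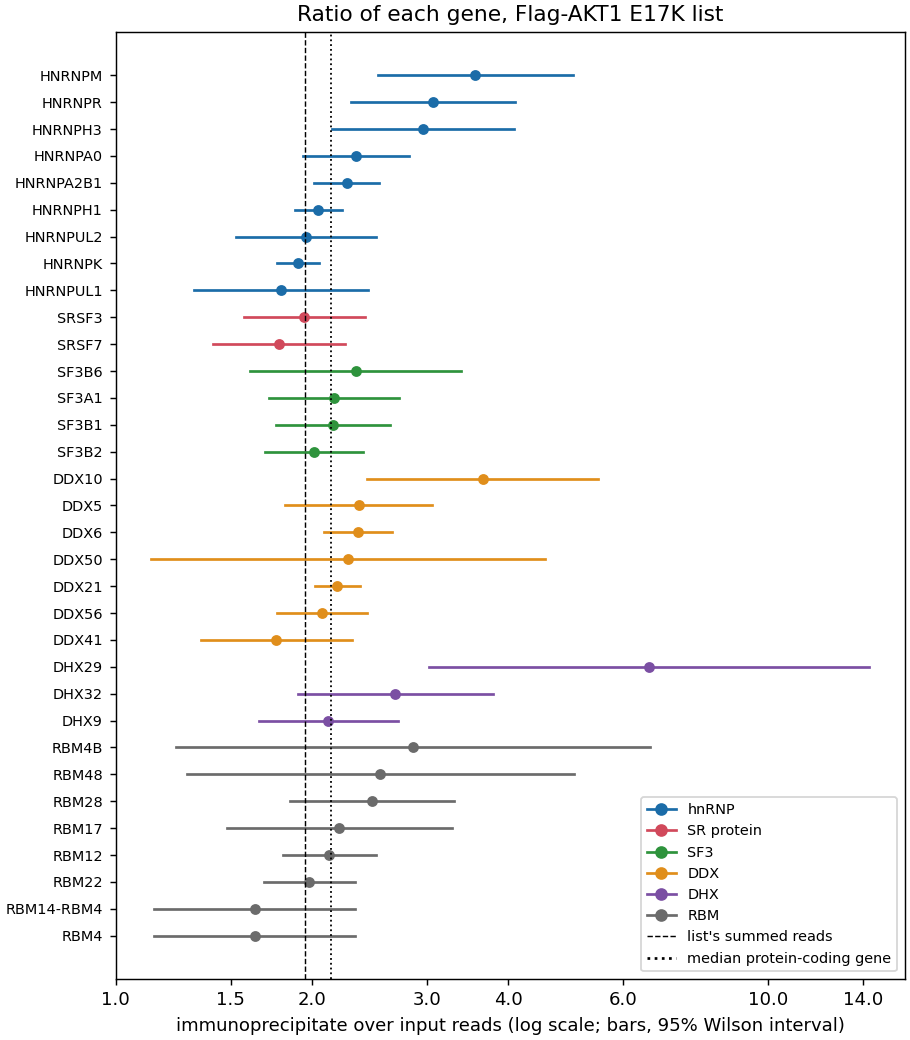
Immunoprecipitate over input reads of each of the 33 genes of the Flag-AKT1 E17K list on a logarithmic axis, with 95% Wilson intervals as bars, the list's summed ratio (1.95) dashed and the median protein-coding gene (2.14) dotted. The intervals of HNRNPM, HNRNPR, HNRNPH3, DDX10 and DHX29 lie above both lines, and those of the SR protein genes span both.

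Between the families the ratios ran from 1.87 for the SR proteins through 2.09 for the RBM genes and the hnRNPs, 2.11 for SF3 and 2.22 for DDX to 2.5 for DHX. The intervals of neighbouring families overlapped throughout this order. The DHX ratios were highest in DHX29 and DHX32, and the family's interval of 2.07 to 3.03 overlaps that of each other family. With only peaks of the label opposite to the gene's strand, which leaves DHX32 out, the DHX ratio was 2.43. For the hnRNPs the median of the genes, 2.26, lay above the interval of their summed ratio, because the 2 genes with most reads, HNRNPK and HNRNPH1, had lower ratios than the median hnRNP gene. By depth the summed values of the families differed more, but single genes spread widely within them. Per kilobase of peak the hnRNPs had 316 and the SR proteins 356 immunoprecipitate reads, while SF3, DHX and RBM genes had 136, 131 and 133, with DDX at 177. Single hnRNP genes ran from 61.7 to 529, and the 2 SR protein genes stood at 196 and 1008. The genes ran from 99.1 to 228 for SF3, 53.2 to 311 for DDX, 57.5 to 249 for DHX and 65.5 to 206 for RBM. The ranges of all families overlap.

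Within single genes the peaks differed. Of the 33 members 21 had more than 1 peak. The 16 DDX21 peaks ran from a ratio of 1.36 to 3.5, where the peak at the 3' end, 2585 bases wide with 736 and 312 reads, held 36.3% of the gene's immunoprecipitate reads at a ratio of 2.36. In DDX6 the ratios ran from 1.67 to 5.75, the latter on 23 and 4 reads. HNRNPK was more even, from 1.59 to 2.33 over 9 peaks, all with at least 81 immunoprecipitate reads. HNRNPH1 was as narrow, from 1.66 to 2.30 over 8 peaks. In HNRNPA0 the middle peak had 69 and 53 reads, a ratio of 1.30 at the percentile 3.5 of the list, between peaks of 2.75 (272 and 99 reads) and 5.75 (23 and 4 reads). In HNRNPUL2 the ratios ran from 1 to 3.88 on peaks of 14 to 31 immunoprecipitate reads. None of these peaks passed the test over all 4838 peaks, and differences between the peaks of 1 gene were not tested.

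**Figure D3:**
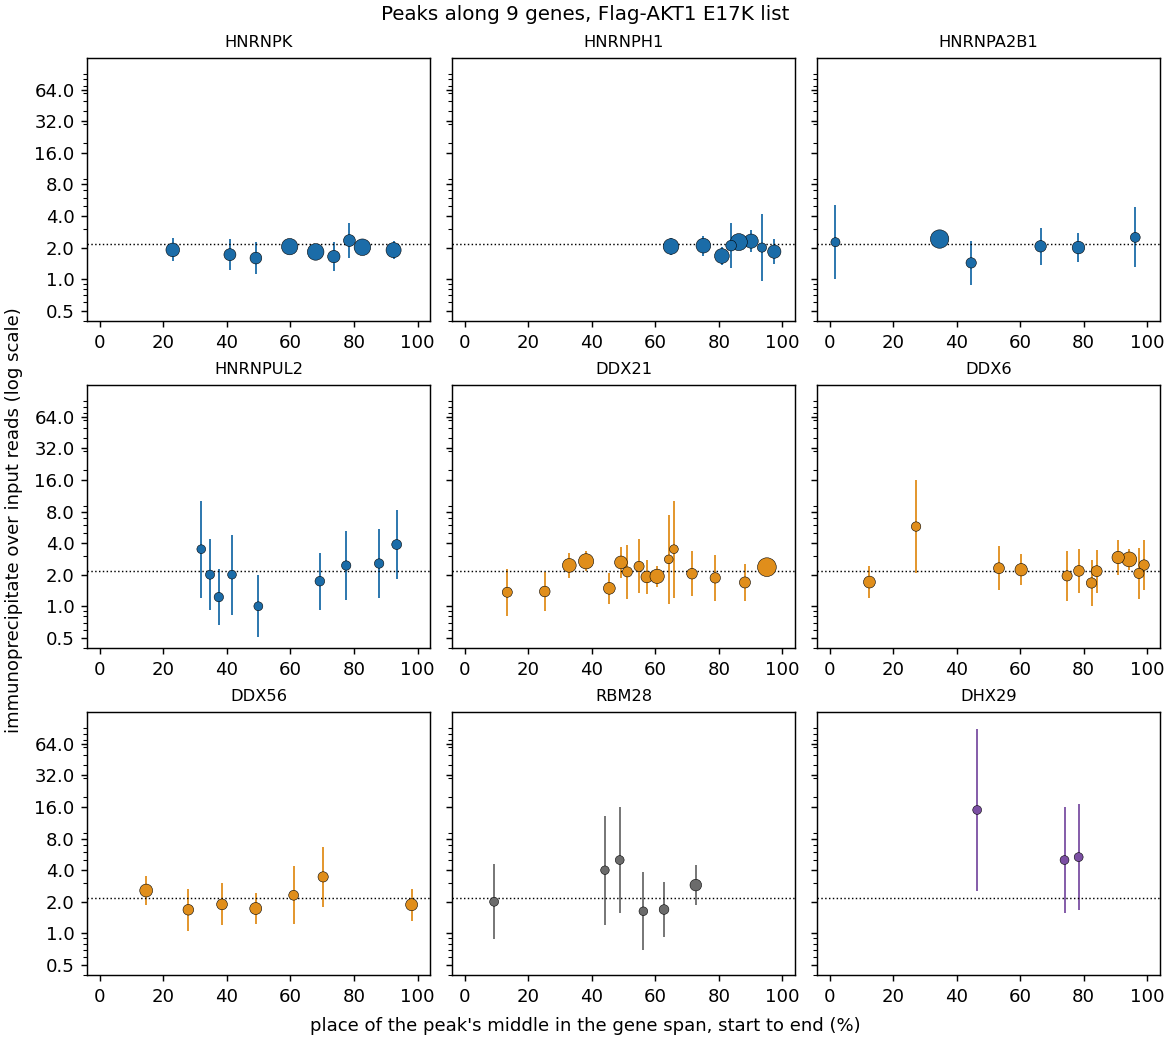
Immunoprecipitate over input reads (logarithmic axis, 95% Wilson intervals) of each peak of 9 genes in the Flag-AKT1 E17K list, placed along the gene span from start to end, with larger points for more immunoprecipitate reads and the list's median peak (2.18) dotted. HNRNPK and HNRNPH1 stay close to the line, DDX6 and HNRNPH1 peaks gather towards the 3' end, and the 3 DHX29 peaks lie above the line on wide intervals.

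Exons and introns could not be assigned, since the annotation at hand holds gene spans only, so no peak could be called intronic. Instead, all peaks are described by their place in the span, which does not tell intron from exon. Over the 118 assignments to a single protein-coding span with a known strand, the median peak lay 64.6% along the gene, compared to 75.7% for all such peaks of the list. In the last 10% of the span lay 18.6% of member peaks and 30.2% of all peaks. This is a description of the list, and gene length and intron content were not matched. The centres of the HNRNPH1 peaks lay from 64.9% to 97.5% of the span. HNRNPA2B1 had 71.3% of its immunoprecipitate reads in 1 peak of 1505 bases at 34.6% of the span, while HNRNPA0 had the centres of all 3 peaks in the first 29.4%. DDX10, whose span is 275859 bases long, had peaks over 0.297% of it, and DHX9, DHX29, HNRNPM and HNRNPUL1 had peaks over 0.884% to 1.64%. In DDX56, DDX41, HNRNPA2B1, DDX21 and HNRNPK the peaks covered 31.1% to 42.4% of the span.

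Antisense and overlapping genes touch several of these values. All 8 HNRNPH1 peaks lie in the lncRNA LOC128966623 and 4 of the 9 HNRNPK peaks in HNRNPK-AS1, both annotated on the strand of the peak label. In HNRNPH3 3 of 5 peaks also overlap RUFY2. The 9 HNRNPUL2 peaks lie in the readthrough lncRNA HNRNPUL2-BSCL2 on the same strand as HNRNPUL2. The peaks of these pairs cannot be told apart by position. RUFY2 is also annotated on the strand of the peak label. On the strand reading used here, the labels at these pairs are those of HNRNPH1, HNRNPK and HNRNPH3 transcripts. For HNRNPUL2 and HNRNPUL2-BSCL2 the label is the same. The part of the overlapping genes in the ratios was not tested.

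Other RNA-processing genes, were drawn up as 6 lists outside the prefixes. Of 151 such genes 33 had a peak for Flag-AKT1 E17K, with a median ratio of 2.12, and 1 had more immunoprecipitate reads by the same test, compared to 2.75% of all genes. That gene was SLU7, a second-step splicing factor, with 499 and 184 reads in 10 peaks, a ratio of 2.71 (adjusted p = 0.00822, Fisher's exact test). The SLU7 call was not followed in the alternatives, such as the reference without the AKT1 peaks. None of the 33 had fewer. In the list of tri-snRNP and related splicing factors, where SLU7 belongs, 9 of 30 genes had peaks with a median ratio of 2.36, and PRPF19, an ubiquitin ligase of the spliceosome, had the most reads (823 and 349, ratio 2.36). SNRNP200, the helicase that unwinds U4 from U6, held 810 and 349 reads (ratio 2.32). Among U1, U2 and Sm protein genes 4 of 21 had peaks (median 1.94), led by SF1, which recognises the branch point first, with 832 and 452 reads (ratio 1.84), and PUF60 with 652 and 299 (ratio 2.18). For the SR-related proteins and kinases it was 7 of 22 (median 2.04), led by SON, a large nuclear speckle protein, with 1050 and 472 reads (ratio 2.22), and THRAP3 with 361 and 170 (ratio 2.12). CELF1, a regulator of splicing and decay, with 1190 and 556 reads (ratio 2.14), and PTBP1, which represses exons through pyrimidine tracts, with 443 and 235 (ratio 1.89), led the other nuclear proteins, of which 4 of 30 had peaks (median 1.88). AGO2, the slicing Argonaute, with 661 and 273 reads (ratio 2.42, adjusted p = 0.0665, Fisher's exact test), and CAPRIN1, a stress granule protein, with 435 and 216 (ratio 2.01), led the cytoplasmic proteins, with 6 of 30 (median 2.2). Of the other helicases 4 of 20 had peaks (median 1.93), with ZNFX1 ahead at 922 and 490 reads (ratio 1.88) and SNRNP200 next.

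The Flag-AKT1 WT list had peaks in 5 of the 140 genes, 35 in all with 1617 immunoprecipitate and 1809 input reads, a ratio of 0.894 (interval 0.836 to 0.956) in a list whose summed ratio is 0.979. DHX15, DDX60, HNRNPD and HNRNPDL lie on chromosome 4, for which 0 peaks were listed with Flag-AKT1 E17K, so these genes have no value there. The SF3 genes and the RBM genes of the rule had 0 peaks in the Flag-AKT1 WT list, where 273 protein-coding genes had a peak. Only 2 of the 9 SF3 genes and 15 of the 39 RBM genes lay on a strand with any peak of that list. RBMX, which the rule leaves out because no digit follows RBM, held 483 and 567 reads in 6 peaks there. Its ratio was 0.852 (adjusted p = 0.199, Fisher's exact test). On the strands concerned, 48 of the 140 genes lay where the Flag-AKT1 WT list has at least 1 peak, and 78 where it has none.

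DHX15, the helicase that takes apart spent spliceosomes, held 440 immunoprecipitate and 567 input reads in 12 peaks. Its ratio of 0.776 (interval 0.685 to 0.879) was below the rest of the list (adjusted p = 0.0108, Fisher's exact test over 273 genes), where 3.3% of all genes had fewer and 1.47% more immunoprecipitate reads (4.76% in all). Input reads outnumbered immunoprecipitate reads in 9 of the 12 peaks, in a list whose median peak, at 0.976, also has more input reads. The lowest, from 24556131 to 24556540, had 13 against 38 reads, a ratio of 0.342, and was the only one to pass among all peaks (adjusted p = 0.0247, Fisher's exact test), where 3.09% did, 1.24% with fewer and 1.86% with more immunoprecipitate reads. An unadjusted p under 0.05 was found for 6 of the 35 peaks of the 5 genes and for 118 of all 808 peaks. Peaks of this list varied more than counting allows, with a mean squared deviation of 2.56 times the binomial variance. Compared only with peaks of its own chromosome and label, at a ratio of 0.940, DHX15 did not pass (adjusted p = 0.0628, Fisher's exact test).

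The other 4 genes of the Flag-AKT1 WT list did not pass. HNRNPD, or AUF1, which binds AU-rich elements in mRNA 3' ends, held 327 immunoprecipitate and 378 input reads in 5 peaks (ratio 0.865, adjusted p = 0.395, Fisher's exact test). HNRNPDL, its neighbour and paralog, held 384 and 388 reads in 3 peaks (ratio 0.990). DDX60, an interferon-induced helicase, held 295 and 284 reads in 14 peaks (ratio 1.04), and its peaks ranged from 0.706 to 3.40, the latter on 17 and 5 reads. Its peak across the 3' end had 33 and 14 reads, a ratio of 2.36 (adjusted p = 0.0902, Fisher's exact test).

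**Figure D4:**
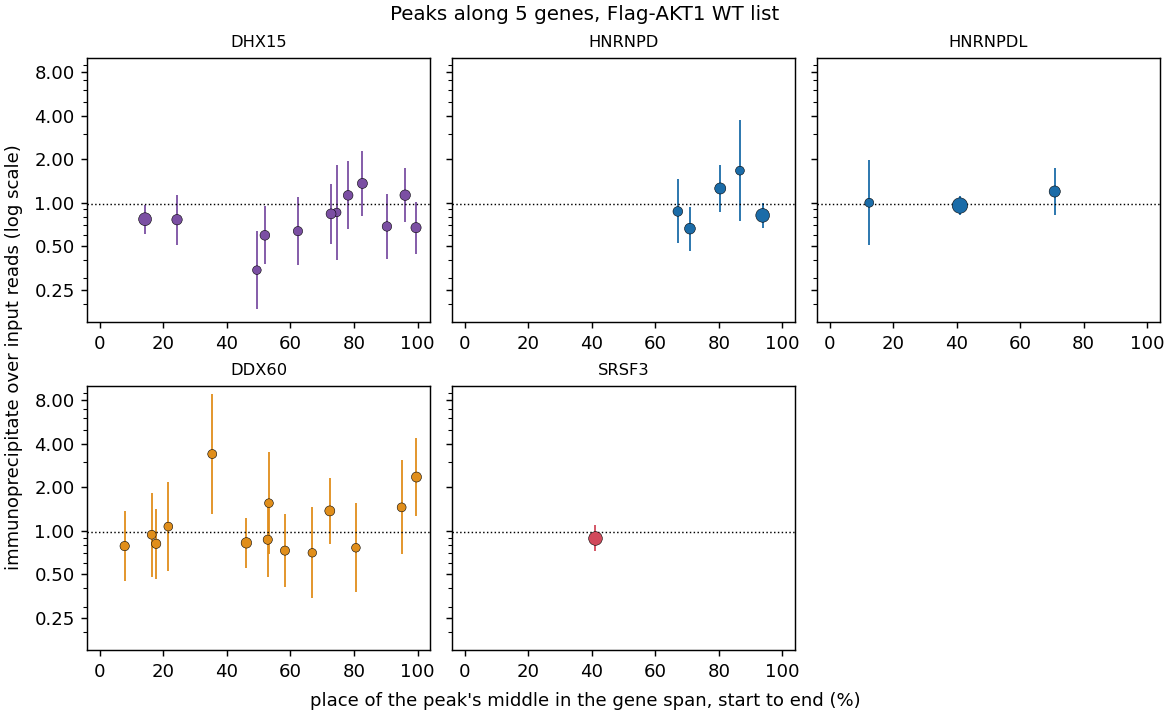
Immunoprecipitate over input reads (logarithmic axis, 95% Wilson intervals) of each peak of the 5 genes in the Flag-AKT1 WT list, placed along the gene span, with larger points for more immunoprecipitate reads and the list's median peak (0.976) dotted. Of the 12 DHX15 peaks 9 lie below 1, and the DDX60 peaks lie on both sides of the line.

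SRSF3 was the only gene of the 37 with a peak in either list that had peaks in both. The same share over all protein-coding genes was not counted, and the lists hold peaks on largely different chromosome strands. The overlap is therefore not read as a trait of these genes. The same interval of chromosome 6, from 36598836 to 36599080, was listed for both plasmids, with 247 immunoprecipitate and 127 input reads for Flag-AKT1 E17K and 171 and 192 for Flag-AKT1 WT. Relative to the median peak of its own list, SRSF3 stood at 0.892 (interval 0.720 to 1.10) for Flag-AKT1 E17K and at 0.912 (interval 0.743 to 1.12) for Flag-AKT1 WT. Relative to the summed ratio of its list SRSF3 stood at 0.997 and 0.910, in the opposite order. Both references rest on different peaks in each list. It lay at the percentile 32.9 of one list and 39.2 of the other. The intervals relative to the median peaks overlap almost entirely. They cover counting error only, and no test between the plasmids was made.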

How the data were processed

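RIP-seq of 4 libraries was analysed from 2 peak lists. The authors deposited, per the file headers, whole read counts per peak, without normalization, for the immunoprecipitate and for a control library. The deposited lists also hold p-values with adjusted p-values, a log odds score, and a signal in reads per kilobase of peak, of which only the adjusted p-value was used, in an alternative. The submitters' processing notes name Bowtie2 2.2.8 and the build hg18, but the coordinates match gene spans of GRCh38.p14, which was used for names. The peak caller is not given in the sources used here.

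Peaks were assigned to each protein-coding RefSeq span overlapped by at least 1 bp. Strands were taken from the RefSeq promoter table, in which 14 of the 140 genes are missing. The ratio is immunoprecipitate over input reads, with an input of 0 counted as 3 reads, and intervals are 95% Wilson intervals of the read share, turned into ratios. Reads without molecular identifiers are not independent molecules. Depth is known only inside peaks, where it ran from 11 to 19041 immunoprecipitate reads per peak for Flag-AKT1 E17K and from 11 to 5628 for Flag-AKT1 WT. Summed gene and single peak counts were tested against the remaining reads of the list (Fisher's exact test, two-sided, in scipy 1.17.1) with Benjamini-Hochberg adjustment over all genes or all peaks, at a threshold of 0.05. The script was tested on simulated counts that vary by counting error only. The test allows for no other error, while peaks deviated from 1 ratio by 1.89 (Flag-AKT1 E17K) and 2.56 (Flag-AKT1 WT) times the binomial variance, so adjusted p-values are too small. Families have no test.

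Members and gene lists were chosen with earlier results of these data known. The rule for named genes took, per family, the 5 members with most immunoprecipitate reads, those with the highest and lowest ratio among genes with at least 20 input reads, all past the threshold and all with a Flag-AKT1 WT peak, and, per list of other RNA-processing genes, the 2 with most reads and any past the threshold. The remaining members with a peak were added after their values were seen. Alternatives were another overlap, peaks in 1 span only, an adjusted p-value of at most 0.001, at least 10 input reads, labels equal to the gene's strand, a binomial test and a reference without AKT1. The opposite label, the reference of 1 chromosome and label and the binomial test of the Flag-AKT1 WT list were chosen after seeing the data. Python 3.11.15, numpy 2.4.6, pandas 2.3.3 and matplotlib 3.10.9 were used.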

Additional observations from a re-analysis of the deposited data

How the results depend on the processing

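Of 80 alternative values for counts and ratios, 71 kept their place, and 9 moved. The members called higher in the Flag-AKT1 E17K list numbered 2 in the main test, 0 with the AKT1 peaks left out of the reference, 0 in the binomial test against the median peak, 0 with only peaks whose label equals the gene's strand, and 1 (HNRNPM) against peaks of the same chromosome and label, an alternative chosen after seeing the data. HNRNPM and DHX29 were the 2 calls of the main test, and the calls with at least 10 input reads were HNRNPM, HNRNPR and DDX21. Over all genes tested, 47 were higher and 3 lower in the main test, 35 and 3 of 1470 with at least 10 input reads, 20 and 8 without the AKT1 peaks, 11 and 30 in the binomial test, and 17 and 6 within chromosome and label. The AKT1 peaks lower the reference to 1.95 from 2.06, and the binomial test sets it at 2.18. In the binomial test 1 member had fewer immunoprecipitate reads in place of 0, HNRNPK (adjusted p = 0.0186). With labels equal to the gene's strand, 1 member (DHX32) was left of 33 and the median gene ratio was 2.68 in place of 2.19, by the construction of that filter. The hnRNP ratio was 2.26 as the median of genes in place of 2.09. DHX32 turned to below the list with peaks in 1 protein-coding span only (ratio 1.89, adjusted p = 1 in place of 0.408, Fisher's exact test). In the Flag-AKT1 WT list the member called lower was lost within chromosome and label, 0 in place of 1. No paired analysis was possible because each condition has 1 library.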
